A study of Mus musculus with 18 samples.

Results

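Metallothioneins and the antioxidant genes under the transcription factor NRF2 were followed in RNA of whole mouse retinas. The set held 10 genes chosen by symbol, the metallothioneins Mt1, Mt2 and Mt3, the NRF2 gene Nfe2l2 and the NRF2 targets Slc7a11, Gclc, Gclm, Txnrd1, Srxn1 and Nqo1, of the 23420 gene symbols counted. All 10 passed the filter on low counts. The retinas came from 9 BALB/cJ mice of either sex aged 8 to 10 weeks, an albino strain, with 3 mice in each of 3 groups. Naïve mice had neither light exposure nor treatment. Vehicle-treated mice, called vehicle mice here, were dark-adapted, received the solvent DMSO and were exposed with dilated pupils to white light of 15000 lux for 1 h. TD139-treated mice, called TD139 mice here, had the same light exposure and received the galectin-3 inhibitor TD139, a thiodigalactoside derivative, at 15 mg/kg daily from the day before the light. The light-exposed retinas were taken 4 days after the exposure. Light and vehicle injections were given together, so their parts in the difference from naïve mice cannot be told apart.

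Metallothioneins are small cysteine-rich proteins that bind zinc and copper and scavenge reactive oxygen species. Mt1 and Mt2 are made in many cell types and are transcribed more when the zinc sensor MTF1 binds metal response elements, and also after glucocorticoids and inflammatory cytokines, whereas Mt3 is mostly a gene of nervous tissue. NRF2 is kept low by KEAP1 and the CUL3 ubiquitin ligase and builds up under oxidative or electrophilic stress. It then pairs with small MAF proteins on antioxidant response elements of genes for glutathione synthesis, thioredoxin reduction and quinone detoxification.

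The promoter sequences are shown for the 3 metallothioneins, which lie close together on chromosome 8 and differed in how far they moved, and for Slc7a11, which had the largest difference of the 6 NRF2 targets among the 10 genes. Each runs 5′ to 3′ along the gene from 250 bases before the RefSeq start site to 50 bases after it, on GRCm38.p6. Capitals mark matches on either strand to the metal response element core, written TGCGCNC or TGCACNC, or to the antioxidant response element core TGACNNNGC.
Mt1, chr8:94178839-94179138, plus strand: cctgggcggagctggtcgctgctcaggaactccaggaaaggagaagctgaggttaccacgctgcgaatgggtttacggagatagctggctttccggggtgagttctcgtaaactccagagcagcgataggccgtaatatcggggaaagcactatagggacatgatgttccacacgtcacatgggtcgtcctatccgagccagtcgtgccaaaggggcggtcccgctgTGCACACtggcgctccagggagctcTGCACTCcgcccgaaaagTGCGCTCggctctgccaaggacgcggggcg
Mt2, chr8:94172368-94172667, plus strand: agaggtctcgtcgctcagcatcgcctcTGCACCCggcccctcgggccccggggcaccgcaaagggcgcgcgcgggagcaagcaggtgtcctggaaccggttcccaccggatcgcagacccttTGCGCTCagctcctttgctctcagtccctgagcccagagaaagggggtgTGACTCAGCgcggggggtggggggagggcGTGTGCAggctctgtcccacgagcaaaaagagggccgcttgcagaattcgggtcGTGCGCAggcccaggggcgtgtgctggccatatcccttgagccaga
Mt3, chr8:94152357-94152656, plus strand: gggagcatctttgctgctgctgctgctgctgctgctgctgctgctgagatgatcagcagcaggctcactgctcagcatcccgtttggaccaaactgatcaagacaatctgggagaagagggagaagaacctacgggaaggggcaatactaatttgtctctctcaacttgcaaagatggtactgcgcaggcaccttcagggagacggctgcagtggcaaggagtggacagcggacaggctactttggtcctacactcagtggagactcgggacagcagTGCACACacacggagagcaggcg
Slc7a11, chr3:50443564-50443863, minus strand: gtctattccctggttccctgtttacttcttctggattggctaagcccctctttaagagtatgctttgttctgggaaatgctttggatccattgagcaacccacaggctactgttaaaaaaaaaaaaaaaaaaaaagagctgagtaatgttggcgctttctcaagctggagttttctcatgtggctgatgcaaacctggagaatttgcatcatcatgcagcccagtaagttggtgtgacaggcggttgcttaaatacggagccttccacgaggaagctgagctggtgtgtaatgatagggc
The Mt1 window held 3 metal response element matches and the Mt2 window 4, while the Mt3 window held 1. These counts hold only for the windows shown, since bases on either side of them were not searched. Of 32851 promoter windows of the same length, 25.7% held a match to either form and 1.97% held 3 or more. The Mt2 window also held 1 antioxidant response element match, which lay 79 bases before the start site and overlapped none of the metal matches. This core was found in 12.4% of all windows, and among the members in those of Nfe2l2, Srxn1, Gclm and 1 of the 3 windows of Txnrd1. The Gclm window held 3 metal response element matches as well, 1 of which overlapped its antioxidant match, and the Srxn1 window 1. None of the 3 cores was in the windows of Slc7a11 and Nqo1, which reach 250 bases before the start site, so elements farther upstream would be missed.

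Between 26171887 and 30201517 reads per mouse were counted on genes, both flow cell runs summed, and levels are CPM, counts per 1000000 of these reads after TMM scaling. Differences are log2 fold changes of the edgeR quasi-likelihood fit over all 3 groups, with p-values adjusted by Benjamini-Hochberg over 15196 tested genes, and a gene was called at an adjusted p under 0.05. The labels number the mice in each group and do not name litters or cages. Vehicle mouse 2 had 6900 CPM of 5 lens genes, against 0.174 to 277 CPM in the other 8 mice. Vehicle mouse 3 had the lowest rod marker level and, with 230 CPM, the highest microglia and macrophage marker level. TD139 mouse 1 had 98.1 CPM of these 9 microglia and macrophage genes, while the other TD139 mice had 44.9 and 37.6 CPM. Rod markers were abundant in all 9 mice, at 41700 to 82500 summed CPM over 7 genes. Reads outside annotated genes were 21.3 to 22.8% in TD139 mice, against 16.5 to 19.4% in vehicle and 19.1 to 19.9% in naïve mice.

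Of the 10 genes, Slc7a11, Nqo1 and Txnrd1 were higher in vehicle than in naïve mice and none was lower, and 8 genes were lower in TD139 than in vehicle mice. Genes called higher in vehicle than in naïve mice were 4.91% of all tested genes, and those called lower 2.89%. Genes called lower in TD139 than in vehicle mice were 16.2% of all tested genes, and those called higher 17.2%. The 8 genes called lower were Mt1, Mt2, Mt3, Slc7a11, Txnrd1, Srxn1, Nqo1 and Nfe2l2, with Gclc and Gclm not called. No member was called lower in vehicle than in naïve mice by edgeR or DESeq2, and none had an unadjusted p under 0.05 in that direction in edgeR. No member was called higher with TD139 by edgeR, with 1 at an unadjusted p under 0.05 and 1 called by DESeq2, which was Gclc in both cases. The 10 genes had a median log2 fold change of 0.47 for vehicle against naïve mice and of -0.77 for TD139 against vehicle mice, beside medians over all tested genes of -0.0018 and -0.016. A high or low value in any of the 3 vehicle mice enters both of these comparisons.

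**Figure D1:**
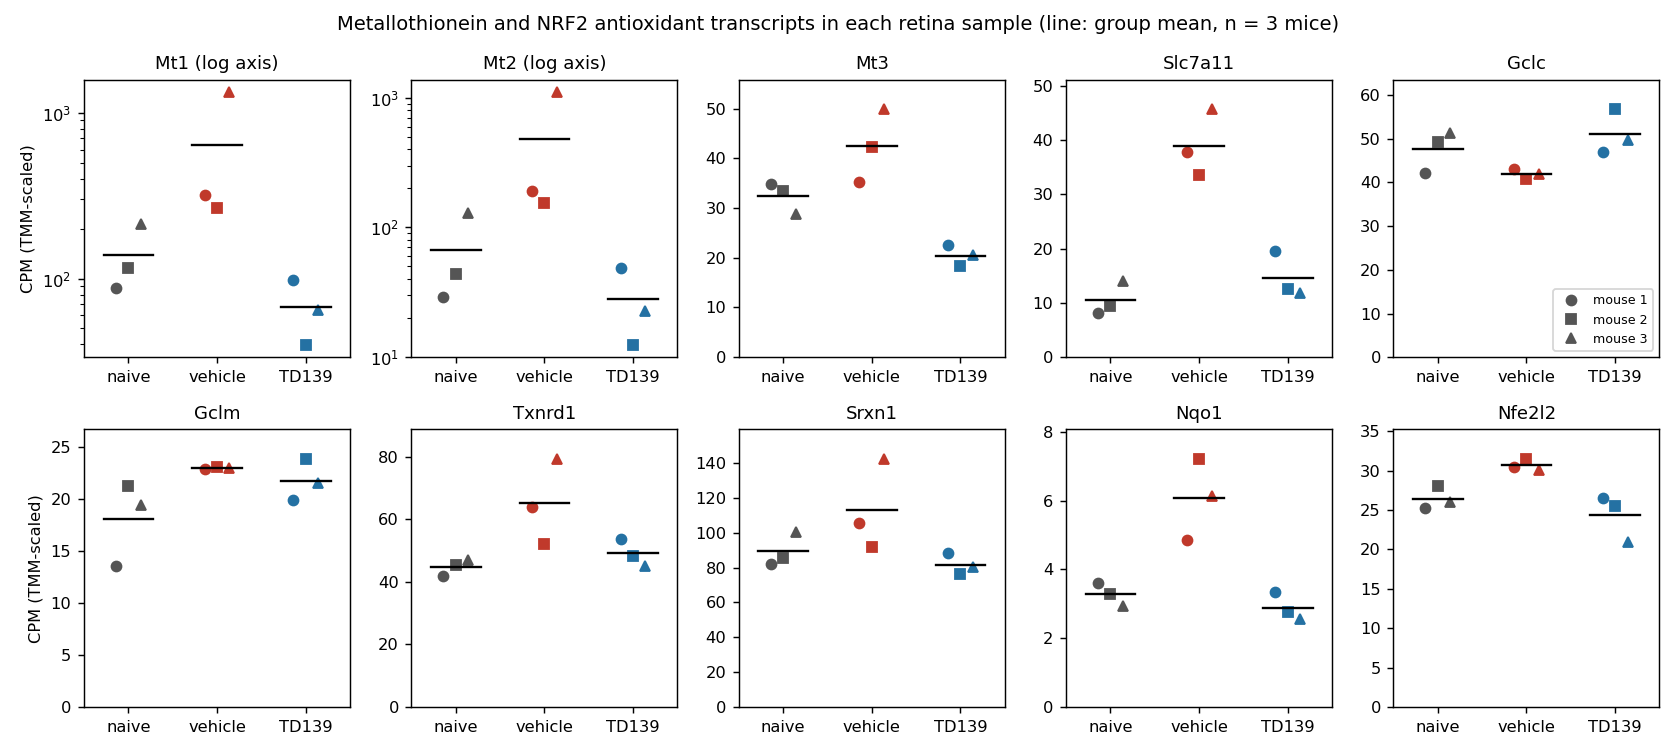
Level of each of the 10 genes in CPM (vertical axes, logarithmic for Mt1 and Mt2 and from 0 for the others) in the naïve, vehicle and TD139 groups, with 1 point per mouse and a line at the mean of 3 mice. Slc7a11 lies between 33.5 and 45.6 CPM in vehicle mice and at or below 19.5 CPM in all others, whereas Mt1 and Mt2 of vehicle mouse 3 stand far above the other mice.

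Mt1 (ENSMUSG00000031765, chr8:94179082-94180327, plus strand) had 87.7, 115 and 212 CPM in the naïve mice. It had 317, 268 and 1328 CPM in the vehicle mice. It had 97.5, 39.9 and 64.3 CPM in the TD139 mice. Every vehicle mouse was above every mouse of the other groups, while naïve and TD139 mice overlapped. With TD139 the level was 9.49-fold lower than with vehicle, a log2 fold change of -3.25 ± 0.80 (SE, n = 3 mice per group, edgeR adjusted p = 0.0241). Against naïve mice the vehicle mice had a 4.61-fold higher mean level that was not called by edgeR (log2 fold change 2.20 ± 0.76, adjusted p = 0.124), whereas DESeq2 called it (adjusted p = 0.0316). Without vehicle mouse 3 the log2 fold change against naïve mice was 1.08, and the change with TD139 was still called at -2.12. The call with TD139 ended without TD139 mouse 2 or 3, at edgeR adjusted p of 0.0935 and 0.0868.

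Mt2 (ENSMUSG00000031762, chr8:94172664-94173568, plus strand), which lies next to Mt1, had the largest standard errors of the 10 genes. Its level was 28.8, 44.0 and 129 CPM in the naïve mice. It was 192, 155 and 1103 CPM in the vehicle mice and 49.0, 12.5 and 22.8 CPM in the TD139 mice. The vehicle mice again lay above all others. The level with TD139 was 17.2-fold lower than with vehicle (log2 fold change -4.11 ± 1.15, edgeR adjusted p = 0.0374). The 7.19-fold higher mean level in vehicle than in naïve mice was not called by edgeR (log2 fold change 2.85 ± 1.08, adjusted p = 0.153) and was called by DESeq2 (adjusted p = 0.0253). Without vehicle mouse 3 the log2 fold changes were 1.37 against naïve mice and -2.63 with TD139, and the latter was no longer called (edgeR adjusted p = 0.0815). It was not called either without naïve mouse 2 or TD139 mouse 1, 2 or 3 (adjusted p of 0.0611, 0.0507, 0.125 and 0.121). The largest log2 fold changes with 1 mouse left out were 3.74 against naïve mice, without naïve mouse 3, and -4.78 with TD139, without TD139 mouse 1. The annotated gene Gm45774 overlaps exons of Mt2 on the opposite strand, and whether the reads were counted by strand is not given in the sources used here.

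Mt2 made up a different share of the pair from mouse to mouse. For every 100 Mt1 reads there were 32.9, 38.2 and 60.7 Mt2 reads in the naïve mice. There were 60.4, 57.9 and 83.1 in the vehicle and 50.3, 31.2 and 35.5 in the TD139 mice. In each group the mouse with the most Mt1, naïve mouse 3, vehicle mouse 3 and TD139 mouse 1, also had the most Mt2 per Mt1 read.

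Mt3 (ENSMUSG00000031760, chr8:94152607-94154146, plus strand), the neural metallothionein, moved in a narrow range. It had 34.9, 33.5 and 28.9 CPM in the naïve mice. It had 35.3, 42.3 and 49.8 CPM in the vehicle and 22.5, 18.3 and 20.5 CPM in the TD139 mice. The 3 groups did not overlap, with the TD139 mice lowest. The fall with TD139 against vehicle was 1.06 ± 0.14 on the log2 scale (edgeR adjusted p = 0.004996), and it was called whichever of the 9 mice was left out. Mt3 was also the only one of the 10 genes called between TD139 and naïve mice, lower by 0.67 ± 0.14 on the log2 scale (adjusted p = 0.0420), in a comparison in which 2.38% of all tested genes were called lower and 2.72% higher. That call ended without naïve mouse 1 or 2, vehicle mouse 2 or TD139 mouse 2 or 3 (adjusted p of 0.159, 0.133, 0.0542, 0.163 and 0.135). The difference of vehicle from naïve mice, 0.39 ± 0.14, was not called (adjusted p = 0.102).

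The metallothionein transcripts are the shortest of the set, with median annotated lengths of 633 bases for Mt1, 449 for Mt2 and 477 for Mt3, against 1553 to 5821 for the other 7 genes, and the libraries differed by transcript length. Between TD139 and vehicle mice the median log2 fold change was -0.48 over the 501 tested genes with transcripts under 700 bases and 0.21 over the 6438 with transcripts over 3000 bases. Between vehicle and naïve mice the same medians were 0.056 and -0.039. With an offset for length and GC content in edgeR, the log2 fold change with TD139 was -2.73 for Mt1 (adjusted p = 0.0573) and -3.58 for Mt2 (adjusted p = 0.0740), neither of them called. Mt3 fell by 0.42 with the offset and was still called (adjusted p = 0.0228), and its difference from naïve mice was -0.14 and no longer called (adjusted p = 0.561). Of the 8 genes called lower with TD139, 5 were called with the offset.

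**Figure D2:**
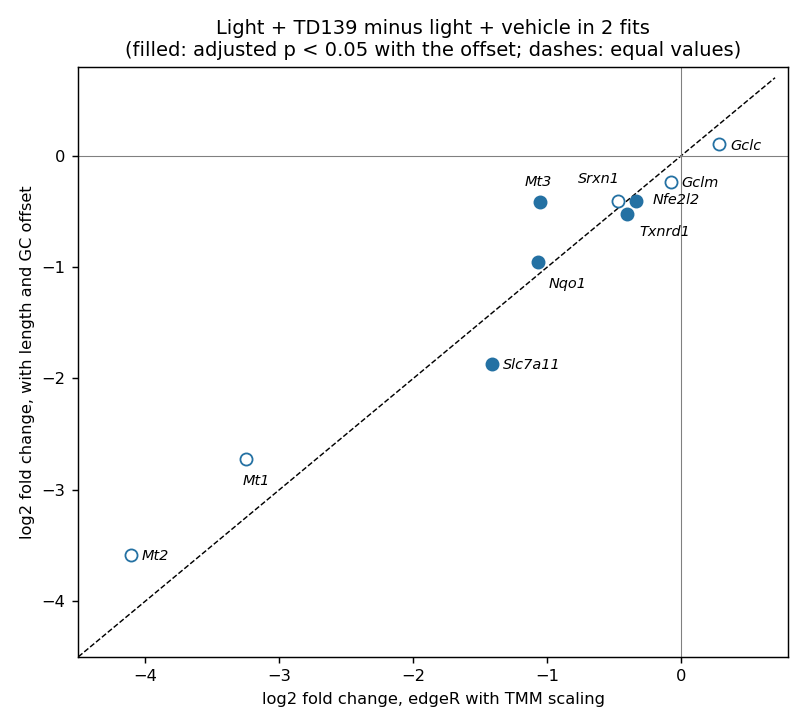
Log2 fold change of TD139 against vehicle mice for the 10 genes with TMM scaling (horizontal axis) and with a further offset for transcript length and GC content (vertical axis), filled where the adjusted p with the offset was under 0.05. Mt3 moves farthest from the line of equal values toward 0, from -1.06 to -0.42, and Slc7a11 lies below the line at -1.87.

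Slc7a11 (ENSMUSG00000027737, chr3:49892526-50443614, minus strand) encodes the transporter that brings cystine into the cell in exchange for glutamate and so feeds glutathione synthesis. It had 8.22, 9.35 and 14.1 CPM in the naïve mice. It had 37.7, 33.5 and 45.6 CPM in the vehicle and 19.5, 12.6 and 11.9 CPM in the TD139 mice. The lowest vehicle mouse was thus above every other mouse, and the TD139 and naïve mice overlapped. The level rose 3.69-fold from naïve to vehicle mice (log2 fold change 1.88 ± 0.24, edgeR adjusted p = 0.0127). It was 2.66-fold lower with TD139 than with vehicle (log2 fold change -1.41 ± 0.24, adjusted p = 0.00568). The fall with TD139 was called with any 1 mouse left out, and the rise with any but naïve mouse 2 (adjusted p = 0.0651). Between TD139 and naïve mice the log2 fold change was 0.47, with a 95% confidence interval from -0.054 to 1.00 (adjusted p = 0.212), and it was called only without naïve mouse 3 (adjusted p = 0.0493).

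Gclc and Gclm encode the catalytic and the modifier subunit of glutamate-cysteine ligase, the rate-limiting enzyme of glutathione synthesis. Neither subunit was called in any of the 3 comparisons. Gclc (ENSMUSG00000032350, chr9:77754535-77794485, plus strand) had 42.1, 49.2 and 51.3 CPM in naïve, 43.1, 40.7 and 42.0 CPM in vehicle and 46.9, 56.7 and 49.6 CPM in TD139 mice. Its direction was opposite to that of the other members, with a log2 fold change of -0.18 for vehicle against naïve mice (95% confidence interval -0.42 to 0.056) and of 0.28 for TD139 against vehicle mice (0.048 to 0.52, edgeR adjusted p = 0.0615). All 3 TD139 mice lay above the 3 vehicle mice, and the difference was called without naïve mouse 1 or TD139 mouse 1 (adjusted p of 0.0451 and 0.0390) and by DESeq2 (adjusted p = 0.0439). Gclm (ENSMUSG00000028124, chr3:122245557-122270732, plus strand) had 13.5, 21.3 and 19.4 CPM in naïve, 22.8, 23.1 and 22.9 CPM in vehicle and 19.8, 23.8 and 21.5 CPM in TD139 mice. The vehicle mice were nearly equal to each other and above all naïve mice, by 0.35 on the log2 scale (95% confidence interval -0.0048 to 0.70, adjusted p = 0.187). For TD139 against vehicle mice the interval was -0.43 to 0.27.

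Txnrd1 (ENSMUSG00000020250, chr10:82833951-82897712, plus strand), the cytosolic thioredoxin reductase, had 41.9, 45.3 and 47.0 CPM in the naïve mice. It had 64.0, 52.0 and 79.2 CPM in the vehicle and 53.8, 48.4 and 45.1 CPM in the TD139 mice. The vehicle mice lay above the naïve mice, whereas the lowest of them lay below the highest TD139 mouse. Txnrd1 was higher by 0.54 ± 0.14 on the log2 scale in vehicle than in naïve mice (edgeR adjusted p = 0.0426) and lower by 0.41 ± 0.14 with TD139 than with vehicle (adjusted p = 0.0461). Both calls depended on which mice were included. The first ended without any of the 3 naïve mice, vehicle mouse 1 or 3 or TD139 mouse 2 or 3 (adjusted p between 0.0567 and 0.131). The second ended without naïve mouse 2 or 3, vehicle mouse 1 or 3 or TD139 mouse 2 or 3 (adjusted p between 0.0504 and 0.186).

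Srxn1 (ENSMUSG00000032802, chr2:152105516-152111376, plus strand) encodes sulfiredoxin, which restores overoxidised peroxiredoxins, and had the highest level per length of the 6 NRF2 targets among the 10 genes. It had 82.4, 85.3 and 101 CPM in the naïve mice. It had 106, 91.9 and 142 CPM in the vehicle and 88.4, 76.4 and 80.1 CPM in the TD139 mice. The vehicle mice overlapped with the naïve mice and lay above the TD139 mice. The difference from naïve mice, 0.34 ± 0.15 on the log2 scale, was not called (edgeR adjusted p = 0.166). The level was lower by 0.47 ± 0.15 with TD139 than with vehicle (adjusted p = 0.0323), which was not called without vehicle mouse 3 or TD139 mouse 2 or 3 (adjusted p of 0.122, 0.119 and 0.101), nor with the length and GC offset (adjusted p = 0.0590).

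Nqo1 (ENSMUSG00000003849, chr8:107388225-107403206, minus strand), the quinone reductase most often read as a sign of NRF2 activity, was the weakest in counts. It had 3.61, 3.28 and 2.93 CPM in the naïve mice. It had 4.86, 7.21 and 6.15 CPM in the vehicle and 3.34, 2.75 and 2.57 CPM in the TD139 mice. The vehicle mice did not overlap with the others. Nqo1 rose 1.85-fold from naïve to vehicle mice (log2 fold change 0.89 ± 0.22, edgeR adjusted p = 0.0359) and was 2.10-fold lower with TD139 (-1.07 ± 0.22, adjusted p = 0.00727). The rise was not called without any 1 of the 6 naïve and vehicle mice (adjusted p between 0.0592 and 0.111), whereas the fall with TD139 was called with any 1 of the 9 mice left out.

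Nfe2l2 (ENSMUSG00000015839, chr2:75675513-75704641, minus strand), the gene of NRF2 itself, had 25.2, 28.04 and 26.1 CPM in the naïve mice. It had 30.5, 31.4 and 30.0 CPM in the vehicle and 26.5, 25.5 and 20.9 CPM in the TD139 mice. The vehicle mice lay above all others by a small margin. The difference from naïve mice was 0.21 ± 0.11 on the log2 scale and was not called (edgeR adjusted p = 0.244). With TD139 it was lower by 0.33 ± 0.11 than with vehicle (adjusted p = 0.0412), and this call ended without naïve mouse 2, any of the 3 vehicle mice or TD139 mouse 2 or 3 (adjusted p between 0.0637 and 0.166).

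**Figure D3:**
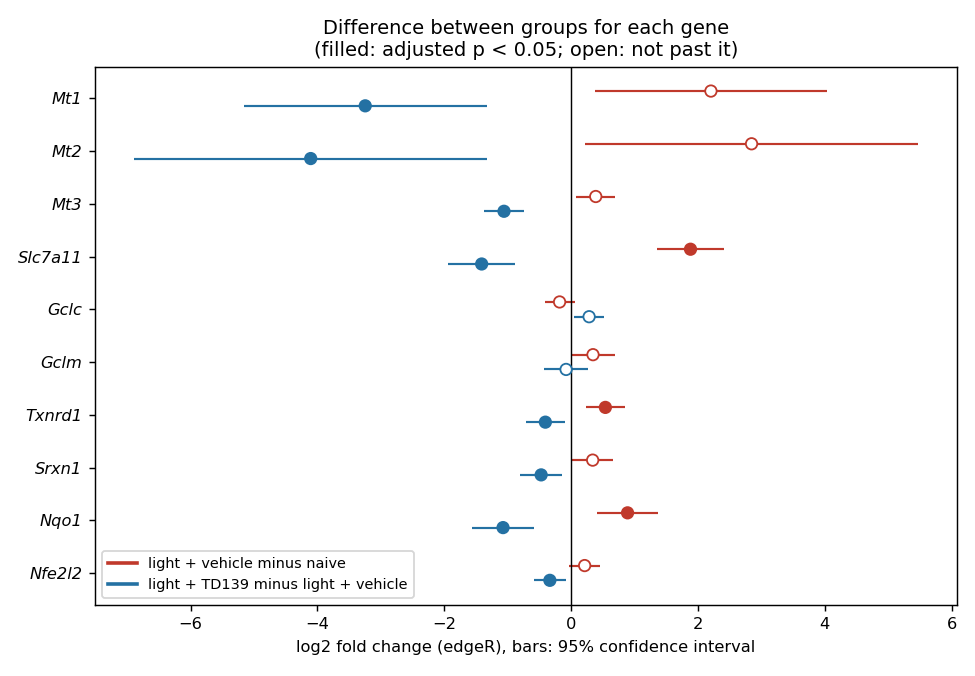
Log2 fold change (horizontal axis) of each gene for vehicle minus naïve mice in red and TD139 minus vehicle mice in blue, with bars for the 95% confidence interval of the edgeR fit and filled points where the adjusted p was under 0.05. Filled red points are Slc7a11, Txnrd1 and Nqo1, and 8 of the 10 blue points are filled, all of them below 0.

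Among vehicle and naïve mice, 8 of the 10 genes had groups that did not overlap with vehicle higher, beside 16.7% of all tested genes, and none with vehicle lower, beside 16.6%. Among TD139 and vehicle mice, 7 of the 10 did not overlap with TD139 lower, beside 25.4% of all tested genes, and 1, Gclc, with TD139 higher, beside 26.0%. A log2 fold change of at least 2 in size together with an adjusted p under 0.05, the size cut-off of the study, was met by Mt1 and Mt2 with TD139 and by no member in vehicle against naïve mice. The count of 3 genes higher in vehicle mice was 1 without naïve mouse 1, naïve mouse 3, vehicle mouse 1 or vehicle mouse 3, and 0 without naïve mouse 2. The count of 8 genes lower with TD139 was 3 without TD139 mouse 2 or TD139 mouse 3, 4 without vehicle mouse 3 and 5 without naïve mouse 2.

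Levels between genes were compared as CPM per kilobase of median transcript length. In naïve mice Mt1 had 219 ± 103 (SD, n = 3), Mt2 149 ± 120 and Mt3 68.0 ± 6.62 CPM per kilobase. Srxn1 followed with 31.8 ± 3.49, Gclc with 13.9 ± 1.41, Txnrd1 with 13 ± 0.763 and Nfe2l2 with 10.7 ± 0.587. Gclm had 5.48 ± 1.22, Nqo1 2.11 ± 0.219 and Slc7a11 1.81 ± 0.534 CPM per kilobase. Mt1 and Mt2, Mt2 and Mt3, Gclc and Txnrd1, and Nqo1 and Slc7a11 were neighbours in this order that lay within their spread. In vehicle mice Slc7a11, at 6.69 ± 1.05, lay above Nqo1 at 3.91 ± 0.756 and close to Gclm at 6.96 ± 0.0391, while Mt1 and Mt2 were at 1010 ± 946 and 1080 ± 1200 CPM per kilobase.

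Markers of several cell types moved with the groups, and their part in the results on the 10 genes was not tested. In bulk RNA, fewer cells of a type and less RNA per cell cannot be told apart. The counts of markers called stand beside 4.91% higher and 2.89% lower of all genes tested between vehicle and naïve mice, and 17.2% higher and 16.2% lower with TD139. Of the 9 microglia and macrophage genes, 7 were called higher in vehicle than in naïve mice and 8 lower with TD139 than with vehicle, and their summed level was 44.5 to 54.6 CPM in naïve, 148 to 230 in vehicle and 37.6 to 98.1 in TD139 mice. The filament gene Gfap, a marker of reactive macroglia, had 26.6 to 44.7 CPM in naïve, 160, 89.7 and 321 CPM in vehicle and 11.8 to 43.5 CPM in TD139 mice, so that vehicle mouse 3, with the most Mt1 and Mt2, also had the most Gfap. Of the 2 reactive macroglia genes both were called lower with TD139, and Vim but not Gfap higher in vehicle than in naïve mice, a call that ended without any of the 3 naïve mice or vehicle mouse 3 (edgeR adjusted p between 0.0651 and 0.0703). The summed level of the 8 Müller glia genes was 4260 to 4900 CPM in naïve, 5570 to 6200 in vehicle and 4900 to 5820 in TD139 mice. Of these, Slc1a3, Aqp4 and Dkk3 were called higher in vehicle than in naïve mice, and Dkk3 and Car14 lower with TD139 than with vehicle. Glul, the most abundant of them, was called in neither (0.16 ± 0.10 and -0.0028 ± 0.10 on the log2 scale). The 7 rod genes summed to 72300 to 82500 CPM in naïve, 41700 to 58700 in vehicle and 59400 to 74600 in TD139 mice. Of the rod genes, 4 were called lower in vehicle than in naïve mice, among them Pde6b, Gnat1 and Prph2. With TD139, 3 were called higher than with vehicle, among them Pde6b and Rp1. The 5 lens genes summed to 68.5 to 277 CPM in naïve, 7.79, 6900 and 2.35 CPM in vehicle and 0.174 to 212 CPM in TD139 mice. Vehicle mouse 2, with the most of them, had the least Mt1, Mt2, Slc7a11, Gclc, Txnrd1 and Srxn1 of its group. The same mouse had the most Nqo1 (7.21 CPM), Gclm and Nfe2l2 of its group, and lay between the others for Mt3. The 6 pigment epithelium genes summed to 60.9 to 64.8 CPM in naïve, 77.3 to 108 in vehicle and 44.8 to 70.8 in TD139 mice, with Rrh called higher in vehicle than in naïve mice and Rrh and Rpe65 lower with TD139 than with vehicle. The 4 endothelial genes summed to 26.9 to 36.5 CPM in naïve, 33.5 to 39.7 in vehicle and 24.8 to 28.8 in TD139 mice, with Cldn5 called lower with TD139. Of the red blood cell genes, Hba-a1 and Hba-a2 were at 0 in every mouse and Alas2 did not exceed 0.989 CPM.

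**Figure D4:**
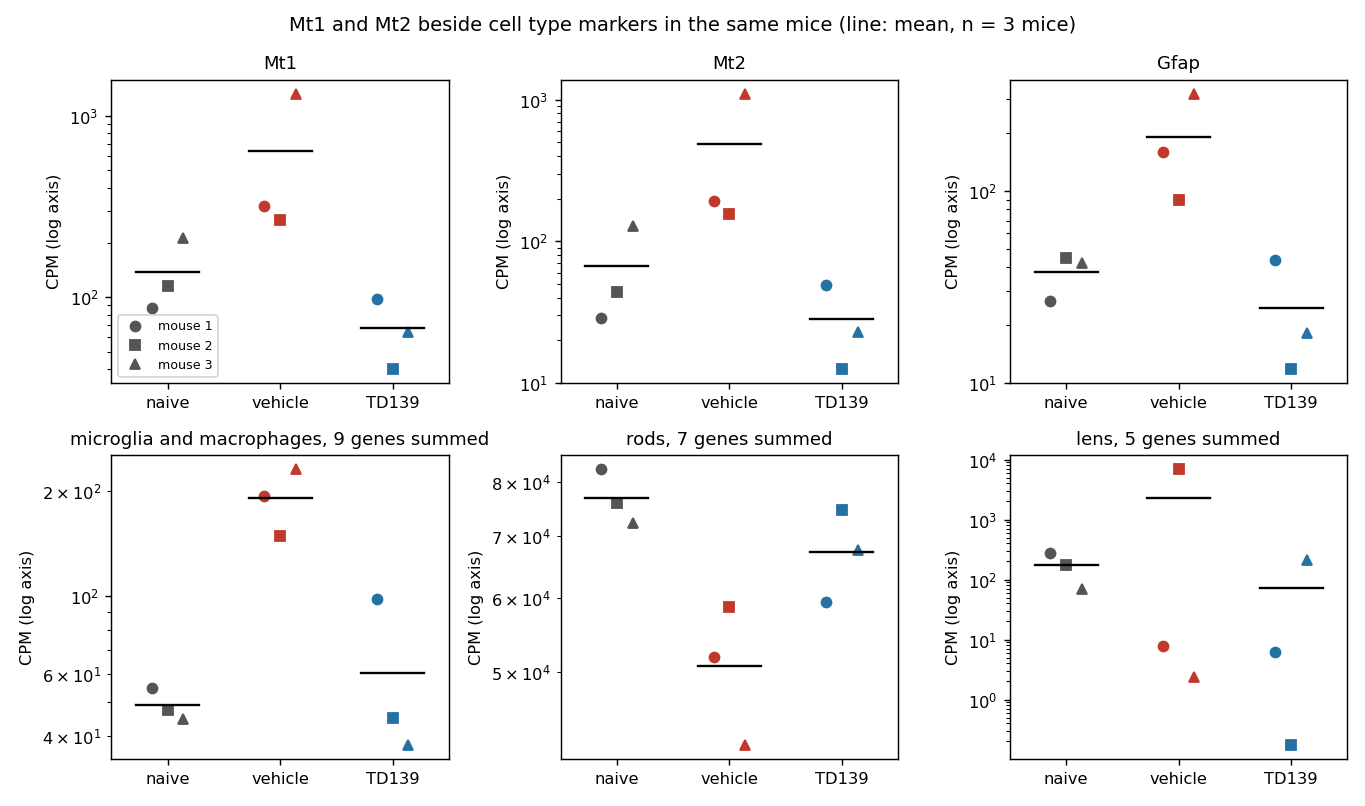
Level in CPM (logarithmic vertical axes) of Mt1, Mt2 and Gfap and summed levels of microglia and macrophage, rod and lens markers in each mouse of the 3 groups, with a line at the mean of 3 mice. Vehicle mouse 3 is highest for Mt1, Mt2, Gfap and microglia and macrophage markers and lowest for rod markers, and vehicle mouse 2 is highest for lens markers.

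The genes with the profile over the 9 mice most like that of a member were taken by the root mean square difference of centred log2 CPM. For Mt1 these were Hsd17b2 (difference 0.342), Gfap (0.400) and Glipr2 (0.410), and for Mt2 they were Tgm1 (0.376), Hsd17b2 (0.408) and Mt1 itself (0.459). Mt3 lay nearest to Aprt (0.0990), the ribosomal protein gene Rpl41 (0.104) and Sertad1 (0.109). Slc7a11 lay nearest to 1810011O10Rik (0.198), Ifih1 (0.245) and Cd44 (0.245), and Nqo1 to Nxn (0.111), Acadl (0.123) and Slc9a3r1 (0.130). Txnrd1 was followed by Gpr157, Sulf2 and Slc10a4, Srxn1 by Esyt1, Ush1g and Ralgds, and Nfe2l2 by Chmp3, C030006K11Rik and Smim8, all at differences of 0.0645 to 0.0909.

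Other genes of the same pathways were counted by lists. Of 27 further NRF2 target enzymes tested, 5 were called higher in vehicle than in naïve mice, beside 4.91% of all genes tested. That count was 0 without any of the 3 naïve mice or without vehicle mouse 1 or 3, and 2 without vehicle mouse 2 or TD139 mouse 2. None was lower in edgeR, where 0 had an unadjusted p under 0.05 in that direction, or in DESeq2. With TD139, 14 were lower than with vehicle, beside 16.2% of all genes tested, and 1, the exporter gene Abcc1, was higher, beside 17.2%. The count of 14 was 5 without TD139 mouse 2, 8 without TD139 mouse 3 and 10 with the length and GC offset, where 0 were higher. The list had median log2 fold changes of 0.37 and -0.76, and of 0.36 and -0.51 with the offset. Hmox1, encoding the inducible heme oxygenase, had 3.92 to 6.45 CPM in naïve mice, 21.1, 15.5 and 69.1 CPM in vehicle mice and 2.33 to 6.45 CPM in TD139 mice. It rose by 2.79 ± 0.64 on the log2 scale with light and vehicle (edgeR adjusted p = 0.0420) and fell by 2.96 ± 0.64 with TD139 (adjusted p = 0.0136). Without vehicle mouse 3 these differences of Hmox1 were 1.84 (edgeR adjusted p = 0.0613) and -2.02 (adjusted p = 0.0278). The microsomal glutathione transferase Mgst1 changed by 1.97 ± 0.51 and -2.19 ± 0.52 on the log2 scale (adjusted p of 0.0494 and 0.0140), the second of which was -3.06 without TD139 mouse 1. The ferritin light chain Ftl1, with 222 to 290 CPM in naïve, 433 to 629 CPM in vehicle and 174 to 285 CPM in TD139 mice, changed by 1.02 ± 0.21 and -1.30 ± 0.21 (adjusted p of 0.0248 and 0.00568). The ferritin heavy chain Fth1, the most abundant of the list, was called with TD139 (-0.83 ± 0.15, adjusted p = 0.00588) and not against naïve mice (0.37 ± 0.15, adjusted p = 0.133). The pentose phosphate enzyme Tkt and the glutathione transferase Gstm1 were likewise called lower with TD139 (log2 fold changes of -0.60 and -1.85) and not called by edgeR against naïve mice, where DESeq2 called Tkt higher (adjusted p = 0.0312). For Gstm1 the highest value, 130 CPM, came from vehicle mouse 2, the mouse with the lens transcripts, and without it the difference with TD139 was -1.20 (edgeR adjusted p = 0.0322). Mgst1 (19.1 CPM) and Tkt (794 CPM) were also highest in vehicle mouse 2, whereas Hmox1, Ftl1 and Fth1 were highest in vehicle mouse 3.

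Of 34 other enzymes of glutathione, thioredoxin and peroxide metabolism, 6 were called higher in vehicle than in naïve mice, beside 4.91% of all genes tested, and 21 lower with TD139, beside 16.2%. The count of 6 was 0 without naïve mouse 2, 1 without naïve mouse 1, naïve mouse 3 or vehicle mouse 3, 2 without vehicle mouse 1 and 3 without vehicle mouse 2. The count of 21 was 13 without TD139 mouse 2, 11 without TD139 mouse 3 and 12 with the length and GC offset. Without the offset none was called the other way in either comparison by edgeR, with 0 at an unadjusted p under 0.05, or by DESeq2. The list's median log2 fold changes were 0.32 and -0.56. Slc3a2, whose protein pairs with that of Slc7a11 to form the cystine transporter, had 213 to 236 CPM in naïve, 279 to 384 CPM in vehicle and 164 to 201 CPM in TD139 mice. Its log2 fold changes were 0.55 ± 0.13 (edgeR adjusted p = 0.0286) and -0.87 ± 0.13 (adjusted p = 0.004996). By edgeR with all mice, both partners of the transporter were called in both comparisons, and the subunits of the next enzyme, Gclc and Gclm, in neither. The difference between these pairs of genes was not tested. The glutathione-degrading enzymes Chac1 and Ggt1 rose by 1.33 ± 0.25 and 1.51 ± 0.34 with light and vehicle and fell by 1.72 ± 0.26 and 1.56 ± 0.34 with TD139. The peroxiredoxin Prdx6 went from 156 to 186 CPM in naïve to 341 to 416 CPM in vehicle and 147 to 230 CPM in TD139 mice (1.14 ± 0.17 and -1.11 ± 0.17, adjusted p of 0.0127 and 0.004996). Gpx4, which reduces lipid peroxides, and Cbs, of cysteine synthesis, were lower with TD139 than with vehicle, at -0.57 ± 0.12 and -1.37 ± 0.34, and were not called by edgeR between vehicle and naïve mice. There Cbs (0.98 ± 0.33) was called by DESeq2 (adjusted p = 0.0455), and by edgeR when TD139 mouse 1 was left out (adjusted p = 0.0431). Gpx4 was also called lower in TD139 than in naïve mice (-0.48 ± 0.12, edgeR adjusted p = 0.0497), a call lost with any of 7 of the 9 mice left out, all but naïve mouse 3 and TD139 mouse 1 (adjusted p of up to 0.182). With the length and GC offset Gpx4 stood at -0.024 between TD139 and vehicle (adjusted p = 0.858) and at -0.033 between TD139 and naïve mice (adjusted p = 0.890), and was called in neither.

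Among 11 regulators and partners of NRF2, edgeR called 1 between vehicle and naïve mice, the small MAF gene Maff, higher by 1.88 ± 0.43 on the log2 scale (adjusted p = 0.0286), and DESeq2 also called Sqstm1 higher (adjusted p = 0.0339). Without naïve mouse 3 the difference of Maff was 2.58 (edgeR adjusted p = 0.0387). With TD139, Maff, Keap1 and the KEAP1-binding autophagy receptor gene Sqstm1 were lower, and Mafg, the repressor gene Bach1 and Cul3 were higher. These 3 of 11 each way stand beside 16.2% lower and 17.2% higher of all genes tested. Their log2 fold changes with TD139 were -1.98 ± 0.43 for Maff, -0.29 ± 0.09 for Keap1, -0.56 ± 0.12 for Sqstm1, 0.76 ± 0.18 for Mafg, 0.72 ± 0.20 for Bach1 and 0.61 ± 0.13 for Cul3. With the length and GC offset Cul3 (0.14, edgeR adjusted p = 0.225), Bach1 (0.31, adjusted p = 0.133) and Sqstm1 (-0.32, adjusted p = 0.0515) were not called, and Mafg stood at 1.31 (adjusted p = 0.0131). Nfe2l1, the most abundant of the list after Sqstm1, was not called in these comparisons (0.16 ± 0.09 and -0.0077 ± 0.085). The medians of the list were 0.045 and -0.25, and 0.018 and -0.056 with the offset. The counts with TD139 were 1 higher and 2 lower without TD139 mouse 3, and 1 each way with the offset. They were 2 each way without TD139 mouse 2 or vehicle mouse 3, and 3 higher and 4 lower without naïve mouse 1 or vehicle mouse 1.

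Of 26 genes of zinc and copper transport tested, 1 was called higher and 1 lower in vehicle than in naïve mice, where 4.91% and 2.89% of all genes tested were. With TD139, 4 were higher and 5 lower than with vehicle, beside 17.2% and 16.2% of all genes tested. These counts were 1 and 3 without TD139 mouse 2, TD139 mouse 3 or vehicle mouse 3, 3 and 3 without naïve mouse 2, 7 and 4 without TD139 mouse 1, and 2 and 4 with the length and GC offset. The list's median log2 fold changes were 0.019 and 0.10, and with the length and GC offset they were 0.0996 and -0.12. The zinc importer gene Slc39a1 had 29.2 to 29.5 CPM in naïve, 50.5 to 66.0 CPM in vehicle and 23.3 to 31.4 CPM in TD139 mice, and changed by 0.95 ± 0.14 and -1.13 ± 0.14 on the log2 scale (edgeR adjusted p of 0.0127 and 0.004996). The copper transporter gene Slc31a2 was lower in vehicle than in naïve mice by 0.64 ± 0.15 (adjusted p = 0.0290) and was not called with TD139 (0.39 ± 0.15, adjusted p = 0.0585). Between vehicle and naïve mice the copper pump gene Atp7b (-0.80 ± 0.26) was called by DESeq2 (adjusted p = 0.0303) and not by edgeR (adjusted p = 0.0759). Without TD139 mouse 1 edgeR called it lower in vehicle mice (adjusted p = 0.0285). With TD139 Atp7b was higher by 1.33 ± 0.26, and the copper chaperone gene Atox1 and the zinc transporter gene Slc39a7 were lower by 0.85 ± 0.16 and 0.39 ± 0.09. With the length and GC offset Atox1 (-0.22, edgeR adjusted p = 0.101) and Slc39a7 (-0.065, adjusted p = 0.542) were not called, while Slc31a2 was called higher (0.80, adjusted p = 0.0216), as it was by DESeq2 (adjusted p = 0.0361). The zinc transporter gene Slc30a9 was called in neither comparison, but with the offset it was called lower with TD139 (-0.36, edgeR adjusted p = 0.0251). Mtf1, the factor that binds metal response elements, was higher with TD139 than with vehicle by 0.43 ± 0.13 (adjusted p = 0.0235), while Mt1 and Mt2 were lower. The fourth metallothionein gene, Mt4, did not pass the filter.

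The 5 glucocorticoid-responsive genes were included because glucocorticoids also raise Mt1 and Mt2. None was called between vehicle and naïve mice by edgeR, with 1, Sgk1, at an unadjusted p under 0.05 and called lower by DESeq2, beside 4.91% higher and 2.89% lower of all genes tested. Sgk1 was called lower there by edgeR without TD139 mouse 1, and without vehicle mouse 2 (adjusted p = 0.0273). The median log2 fold changes of the list were -0.044 and 0.069. With TD139, Sgk1 was higher than with vehicle by 0.65 ± 0.22 (edgeR adjusted p = 0.0443), 1 of 5 beside 17.2% of all genes tested. Fkbp5 had 40.7, 37.1 and 83.9 CPM in naïve, 34.5, 42.1 and 81.1 CPM in vehicle and 31.8, 36.2 and 38.4 CPM in TD139 mice. Its highest values came from naïve mouse 3 and vehicle mouse 3, each with the most Mt1 and Mt2 of its group. TD139 mouse 1, also with the most Mt1 and Mt2 of its group, had the least Fkbp5. A part of glucocorticoids in the levels of Mt1 and Mt2 was not tested. Per1, at 127 to 190 CPM in naïve and 127 to 181 CPM in vehicle mice, was not called.

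**Figure D5:**
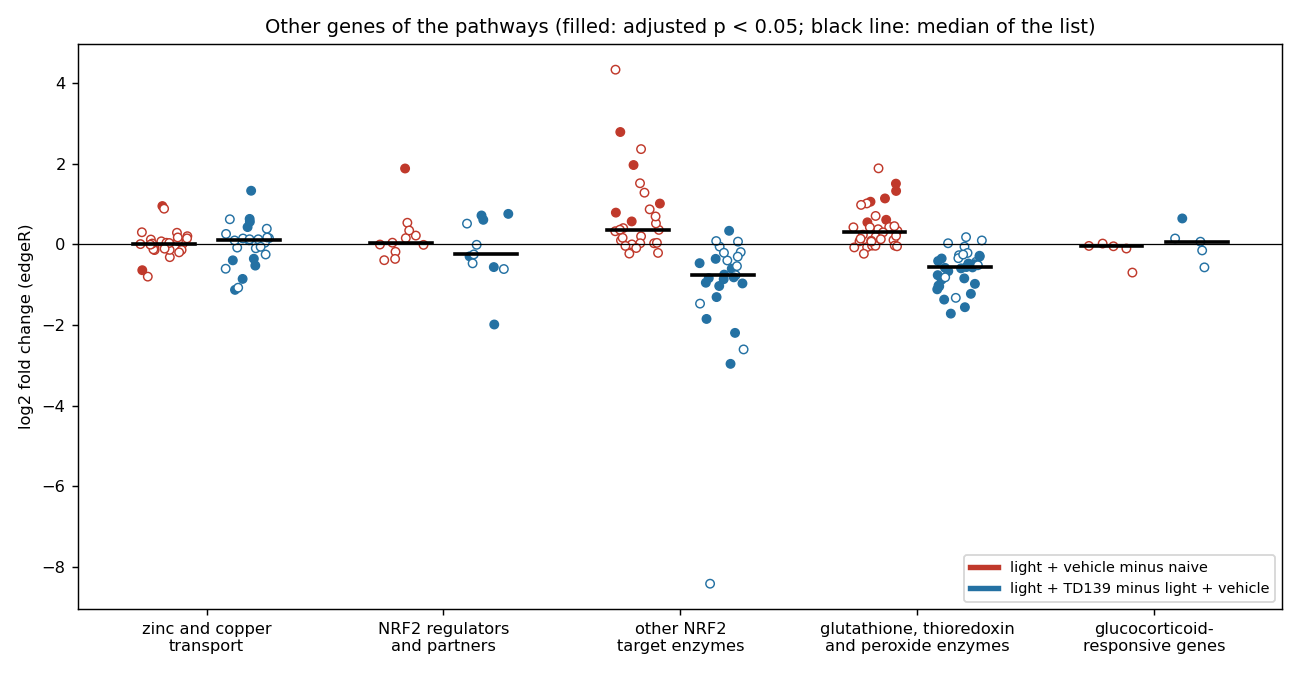
Log2 fold changes (vertical axis) of the tested genes in 5 pathway lists, in red for vehicle minus naïve mice and in blue for TD139 minus vehicle mice, filled where the adjusted p was under 0.05 and with a black line at each list's median. Other NRF2 target enzymes and the glutathione, thioredoxin and peroxide enzymes have medians of 0.37 and 0.32 in red and -0.76 and -0.56 in blue.

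Over all 5 lists, 13 genes were called higher and 1 lower in vehicle than in naïve mice, and 43 lower and 9 higher with TD139 than with vehicle. Over all genes tested the shares were 4.91% higher and 2.89% lower in the first comparison, and 16.2% lower and 17.2% higher in the other. The count of 13 was 0 without naïve mouse 2, 2 without naïve mouse 1 or vehicle mouse 3, 3 without naïve mouse 3 or vehicle mouse 1, and 7 without vehicle mouse 2. The count of 43 was 23 without TD139 mouse 2, 24 without TD139 mouse 3, 34 without vehicle mouse 2 or vehicle mouse 3, and 27 with the length and GC offset. The count of 9 was 3 without TD139 mouse 2 or vehicle mouse 3, 2 without TD139 mouse 3, and 4 with the offset. Of the genes named from the lists, Slc39a1 and Prdx6 lost the call against naïve mice only without naïve mouse 2 (edgeR adjusted p = 0.0651 for both), and each of the others lost it with any of 4 to 7 of the 9 mice left out, 1 at a time. The calls with TD139 of Slc3a2, Prdx6, Gpx4, Chac1, Ggt1, Ftl1, Fth1, Maff, Sqstm1, Cul3, Slc39a1, Slc39a7, Atp7b and Atox1 against vehicle held whichever mouse was left out, but with the length and GC offset Gpx4, Sqstm1, Cul3, Slc39a7 and Atox1 were not called. The calls of Hmox1 and Cbs ended without TD139 mouse 2 (adjusted p of 0.0645 and 0.0596) or TD139 mouse 3 (0.0519 and 0.0526), and those of Mgst1 and Tkt without TD139 mouse 2 (0.0655 and 0.0511). Bach1 was not called without TD139 mouse 2, TD139 mouse 3 or vehicle mouse 3 (0.0809, 0.0660 and 0.0619), Gstm1 without TD139 mouse 2, TD139 mouse 3 or naïve mouse 1 (0.109, 0.0942 and 0.0503), and Mafg without TD139 mouse 3 (0.0567). The calls of Mtf1, Keap1, Abcc1 and Sgk1 each ended without TD139 mouse 2, TD139 mouse 3 or vehicle mouse 3, among others (adjusted p between 0.0550 and 0.167 over all mice that ended them). Keap1, Abcc1, Mtf1, Bach1, Gstm1 (edgeR adjusted p = 0.0651) and Sgk1 (0.0870) were not called with the offset either. With library size alone as the scaling, 77.6% of all called genes were higher in vehicle than in naïve mice instead of 63.0%, 39.0% were higher with TD139 than with vehicle instead of 51.6%, and 65.4% were higher in TD139 than in naïve mice instead of 53.3%.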

How the data were processed

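Poly(A) RNA of 9 retinas was made into stranded libraries and read on 2 flow cells as single reads. Per the labels the build was mm10, and the annotation is not given in the sources used here. The authors deposited whole-number read counts per gene and flow cell run from BaseSpace RNA Express, without scaling. The paper's data statement speaks of normalized counts, but the values held here are whole numbers without scaling and were used as counts. Counts were summed over the 2 runs, with mice as replicates. Reads outside genes and ambiguous reads were left out.

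Tests used edgeR 4.0.16 in R 4.3.3 (filterByExpr, TMM, robust quasi-likelihood test, all 3 groups in 1 fit), checked on simulated data. The standard error is the log2 fold change divided by the square root of F. Alternatives were DESeq2 1.42.0, limma voom 3.58.1, other scalings and filters, the 2 groups alone, the replicate number as a block, single runs, a spline offset with 4 degrees of freedom for length and for GC content, and each mouse left out. Samples of a group may share technical sources, so p-values measure the spread between these mice. Intervals cover only this spread. Lengths and positions came from GENCODE on GRCm38, and promoters of the members other than Gclc from RefSeq.

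The members, pathway lists and tests were chosen with earlier results of these data known. Named beside the members were, per list, up to 3 genes with the highest mean count and up to 3 called genes with the largest change in each of the first 2 comparisons, and for each called member the 3 genes of most similar profile among genes averaging 50 counts or more. Keap1, Abcc1, Mtf1, Mt4 and the single cell type markers were named after their values were seen.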

Additional observations from a re-analysis of the deposited data

How the results depend on the processing

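Changes are in the counts of the 10 genes. For vehicle against naïve mice, 3 were called higher. DESeq2 called 5, adding Mt1 and Mt2, and the fit with the replicate number as a block 1. With 1 mouse left out the count was 0 to 3. For TD139 against vehicle mice, 8 were called lower. The count was 5 with the length and GC offset, 6 without a low-count filter, 4 with only the 2 groups compared, and 3 to 8 with 1 mouse left out, and DESeq2 and limma voom called 1 gene higher, Gclc, where edgeR called 0, as did leaving out 1 mouse in 2 cases (0 to 1). For TD139 against naïve mice, the single call was lost (0) with the offset, with only these 2 groups and with the block, and was 0 to 1 with 1 mouse left out, while 0 to 1 genes were called higher. Gclc reversed between TD139 and naïve mice with the offset, from 0.10 to -0.021. Replicate numbers did not pair the mice: same-numbered mice of different groups correlated at -0.259 to 0.282 in their deviations from group means. With the block, Nqo1 and Txnrd1 were not called against naïve mice (edgeR adjusted p of 0.0564 and 0.0585), nor Mt2 and Txnrd1 with TD139 (0.0533 and 0.0624), nor Mt3 between TD139 and naïve mice (0.0725). Over all genes, 775 calls between TD139 and naïve mice became 0 with the offset or the block. Without the filter, Txnrd1 and Nfe2l2 were not called with TD139 (0.0517 and 0.0606), and with only the 2 groups compared, Mt1, Mt2, Txnrd1 and Nfe2l2 were not (0.0518, 0.0641, 0.0662 and 0.0551). On single runs, Nqo1 against naïve mice (0.109, run 2), Txnrd1 against naïve mice (0.0605, run 1), Txnrd1 with TD139 (0.0535, run 2) and Nfe2l2 with TD139 (0.172, run 2) were not called. The cause was not tested.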
